A study of Mus musculus with 18 samples.

Results

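Esr1, Pgr, Prlr, Foxa1, Gata3, Cited1, Tnfsf11 and Greb1 are genes of the hormone-sensing luminal cells of the mammary gland or of the signals that pass through them. They were taken by name, with earlier results of these data known. Each gene symbol matched 1 of the 55450 genes in the deposited tables, so all 8 were found. RNA had been sequenced from 18 spontaneous mammary gland tumors, each from a different mouse per the series design. The Cbfb(het) group held 14 tumors, the Cbfb(homo) group held 1 and the Cbfb(wt) group held 3. The genotype of every mouse, Cbfb(wt) included, also had MMTV-Cre and a heterozygous Pik3ca H1047R allele (spelled "Pikca" in the labels), so no group here was free of the Pik3ca change. MMTV-Cre drives Cre recombinase mainly in mammary epithelium, and Pik3ca H1047R is an activating change in a catalytic subunit of phosphoinositide 3-kinase. No treatment was given, and the labels name no age, strain, litter or batch and do not say how Cbfb was altered.

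In the mammary gland a minority of luminal cells carries the receptors for estrogen (Esr1), progesterone (Pgr) and prolactin (Prlr). Foxa1 and Gata3 are transcription factors that act with the estrogen receptor, Cited1 is a transcriptional coregulator that binds it, and Greb1 is known from human breast cancer cells as an estrogen-induced gene. Hormone-sensing cells pass signals to their neighbours by secreted factors, among them RANK ligand (Tnfsf11), which progesterone induces, and amphiregulin (Areg), which estrogen induces. Core-binding factor beta (Cbfb) is the partner of the RUNX transcription factors.

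Each tumor had 33210239 to 40974166 expected counts, which are read counts that RSEM assigns to genes and that were rounded here. Cbfb was at 12.8 to 71.1 TPM (a level corrected for transcript length and library size) in the Cbfb(het) tumors and at 10.8 TPM in the Cbfb(homo) tumor, against 35.7, 12.03 and 22.1 TPM in the Cbfb(wt) tumors, so these levels did not separate the labels. The epithelial gene Epcam was at 75.1 TPM or more in 15 tumors but at 26.4 TPM in Cbfb(het) 10, 27.2 TPM in Cbfb(het) 14 and 5.60 TPM in Cbfb(wt) 2. The luminal keratin Krt18 was at 13.9, 14.6 and 14.7 TPM in those 3 tumors, against 239.7 to 860.2 TPM in the other 15. They are called low-Epcam tumors below, and results are given with and without them. Cbfb(het) 10 and 14 were also more alike than any other pair, with a chi-square of 4.20 per gene against 86.4 for the next closest pair and a median of 600 over the others. This difference was beyond sampling noise, but pieces or library preparations of 1 tumor can also differ that much, so whether they share a tumor or a mouse is not known. They were counted as 2 tumors, as labelled, and as 1 in an alternative.

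Promoter sequences are shown for 3 genes whose levels moved together over the tumors (Foxa1, Prlr and Cited1) and for Greb1, whose level did not follow theirs. RefSeq windows of 250 bases before to 50 bases after a start site (build GRCm38.p6) were given for all 8 genes, 14 windows in all. Capitals mark GGTCA, an arm of the estrogen response element, the FOXA motif TGTTTAC, or the STAT5 motif (TTC and GAA 3 bases apart), read on either strand. Each window is written from 5′ to 3′ on the strand of its gene. The last 30 bases of the Prlr window shown lie unbroken in no GENCODE M21 transcript of Prlr, while those of the other 13 windows lie in a transcript of their gene. Start positions were not compared, so the start site of this Prlr window was taken as RefSeq gives it.
Foxa1, chr12:57546062-57546361, minus strand: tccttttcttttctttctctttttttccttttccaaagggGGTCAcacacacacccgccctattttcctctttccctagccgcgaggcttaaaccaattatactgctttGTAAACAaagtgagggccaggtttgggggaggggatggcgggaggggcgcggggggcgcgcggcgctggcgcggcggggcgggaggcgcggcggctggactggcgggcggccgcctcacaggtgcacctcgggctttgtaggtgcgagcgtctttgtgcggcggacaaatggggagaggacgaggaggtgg
Prlr second window, chr15:10223656-10223955, plus strand: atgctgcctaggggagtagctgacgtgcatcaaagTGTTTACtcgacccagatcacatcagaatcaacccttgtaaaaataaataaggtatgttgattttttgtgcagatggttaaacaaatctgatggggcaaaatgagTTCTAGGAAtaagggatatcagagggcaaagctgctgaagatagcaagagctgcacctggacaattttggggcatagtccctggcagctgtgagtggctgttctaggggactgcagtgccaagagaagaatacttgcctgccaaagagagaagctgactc
Cited1 first window, chrX:102252132-102252431, minus strand: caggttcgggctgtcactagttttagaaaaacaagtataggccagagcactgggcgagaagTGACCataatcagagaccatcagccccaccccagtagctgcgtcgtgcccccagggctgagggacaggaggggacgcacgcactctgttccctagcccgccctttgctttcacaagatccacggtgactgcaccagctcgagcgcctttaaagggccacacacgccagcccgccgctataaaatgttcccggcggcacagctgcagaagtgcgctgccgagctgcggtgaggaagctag
Greb1 second window, chr12:16757190-16757489, minus strand: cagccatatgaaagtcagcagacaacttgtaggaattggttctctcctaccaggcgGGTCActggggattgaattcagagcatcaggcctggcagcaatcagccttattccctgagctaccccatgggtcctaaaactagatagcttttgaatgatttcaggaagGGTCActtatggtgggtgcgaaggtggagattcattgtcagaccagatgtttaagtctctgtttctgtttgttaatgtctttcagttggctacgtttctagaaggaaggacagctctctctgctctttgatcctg

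GGTCA was in 7 of the 14 windows and in 40.5% of all 32851 mouse windows. TGTTTAC was in 2 of the 14 (those of Foxa1 and Prlr shown above) and in 3.65% of all windows. The STAT5 motif was in 2 of the 14 (a window of Esr1 and the one of Prlr shown above) and in 8.30% of all windows. No window of the 8 genes held the GATA motif AGATAA, found in 11.2% of all windows, or the full estrogen response element (GGTCA and TGACC 3 bases apart), found in 0.0700%. Motif searches covered both strands, and the full element holds GGTCA. A match describes letters only, and these windows leave out distal elements.

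Among the receptors, Esr1 (ENSMUSG00000019768.16, chromosome 10) was detected in every tumor at low to moderate levels. Its lowest, median and highest values were 0.69, 2.16 and 7.57 TPM in the Cbfb(het) tumors. It was at 7.22 TPM in the Cbfb(homo) tumor, against 1.76, 0.64 and 2.99 TPM in the Cbfb(wt) tumors. The highest tumors were Cbfb(het) 4 and Cbfb(homo) 1, the lowest were Cbfb(wt) 2 and Cbfb(het) 1, and the range of the Cbfb(het) tumors took in 2 of the 3 Cbfb(wt) tumors. In bulk tissue, fewer cells of a type and less RNA per cell cannot be told apart, and this holds for every level below.

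Pgr (ENSMUSG00000031870.16, chromosome 9), itself an estrogen-induced gene, spanned a wider range. It had 0.01, 0.325 and 3.83 TPM as the lowest, median and highest Cbfb(het) values. The Cbfb(homo) tumor stood highest of all 18 at 12.4 TPM, 21.6 times the median of the 18 tumors (0.575 TPM), while the Cbfb(wt) tumors had 0.74, 0.04 and 1.12 TPM. Only Cbfb(het) 1 was at 3 counts or fewer, with 1 count.

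Prlr (ENSMUSG00000005268.20, chromosome 15) was the highest of the 3 receptors in 15 of the 18 tumors. Its lowest, median and highest values in the Cbfb(het) tumors were 0.76, 5.4 and 37.6 TPM. In the Cbfb(homo) tumor it was at 19.5 TPM, against 6.10, 0.41 and 8.29 TPM in the Cbfb(wt) tumors. The order was like that of Esr1, with Cbfb(het) 4 and Cbfb(homo) 1 at the top and the 3 low-Epcam tumors and Cbfb(het) 1 at the bottom.

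Of the transcription factors, Gata3 (ENSMUSG00000015619.10, chromosome 2), needed for the luminal fate, had the highest median level of the 8 genes, although Cited1 exceeded it in some tumors and Tnfsf11 in the low-Epcam ones. Its Cbfb(het) values ran from 1.29 over a median of 25.5 to 62.5 TPM. It was at 37.9 TPM in the Cbfb(homo) tumor, against 28.4, 2.30 and 35.1 TPM in the Cbfb(wt) tumors. It was at 16.97 TPM or more in 15 tumors and at 1.32, 1.29 and 2.30 TPM in the low-Epcam tumors Cbfb(het) 10, Cbfb(het) 14 and Cbfb(wt) 2, with an empty interval of 3.01 on the log2 CPM scale between these clusters.

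Foxa1 (ENSMUSG00000035451.7, chromosome 12), which opens chromatin for the estrogen receptor, ranged from 0.05 over a median of 1.55 to 39.1 TPM in the Cbfb(het) tumors. It was at 21.3 TPM in the Cbfb(homo) tumor, against 3.25, 0.16 and 1.42 TPM in the Cbfb(wt) tumors. The highest values were those of Cbfb(het) 4, Cbfb(homo) 1 and Cbfb(het) 5 (18.4 TPM). The lowest, in Cbfb(het) 8, came from 5 counts although Epcam was at 407 TPM in that tumor, so a low Foxa1 level was also found with a high Epcam level.

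Cited1 (ENSMUSG00000051159.16, chromosome X) had the widest range above its median. Its Cbfb(het) values ran from 1.00 over a median of 5.89 to 295 TPM. Its level was 106 TPM in the Cbfb(homo) tumor, against 8.66, 0.93 and 1.84 TPM in the Cbfb(wt) tumors. The highest tumor, Cbfb(het) 4, was 50.2 times the median of all 18 tumors, and Cbfb(het) 5 (128 TPM), Cbfb(homo) 1 and Cbfb(het) 9 (36.6 TPM) followed. The other 14 tumors were at 12.04 TPM or less.

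The ligand gene Tnfsf11 (ENSMUSG00000022015.8, chromosome 14) followed another order. Its lowest, median and highest Cbfb(het) values were 0.04, 2.37 and 16.5 TPM. The Cbfb(homo) tumor had 1.54 TPM, and the Cbfb(wt) tumors had 0.48, 24.1 and 0.04 TPM, which spanned all 14 Cbfb(het) values. The 3 highest were the low-Epcam tumors Cbfb(wt) 2, Cbfb(het) 10 and Cbfb(het) 14 (24.1, 16.5 and 16.3 TPM), followed by Cbfb(het) 4 (9.64 TPM) and Cbfb(het) 5 (8.39 TPM). Cbfb(het) 8 with 3 counts and Cbfb(wt) 3 with 2 counts were near the limit of detection.

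Greb1 (ENSMUSG00000036523.16, chromosome 12) had the lowest median of the 8 genes. It had 0.07, 0.295 and 2.31 TPM as the lowest, median and highest Cbfb(het) values. The Cbfb(homo) tumor had 4.45 TPM from 781 counts, against 0.31, 0.56 and 0.68 TPM in the Cbfb(wt) tumors. The lowest tumor, Cbfb(het) 4 with 16 counts, had the highest Esr1, while Cbfb(het) 1, second highest for Greb1, was next to last for Esr1.

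By median level over the 18 tumors the order was Gata3 (27.1 TPM), Prlr (5.98 TPM), Cited1 (5.89 TPM), Esr1 (2.16 TPM), Foxa1 (1.82 TPM), Tnfsf11 (1.37 TPM), Pgr (0.575 TPM) and Greb1 (0.375 TPM). Gata3 was above Prlr in 18 of 18 tumors and Cited1 was above Esr1 in 17 of 18. The other neighbours were not separated in this way. Prlr was above Cited1 in 5 of 18 tumors, Esr1 above Foxa1 in 10, Foxa1 above Tnfsf11 in 13, Tnfsf11 above Pgr in 13 and Pgr above Greb1 in 10.

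**Figure D1:**
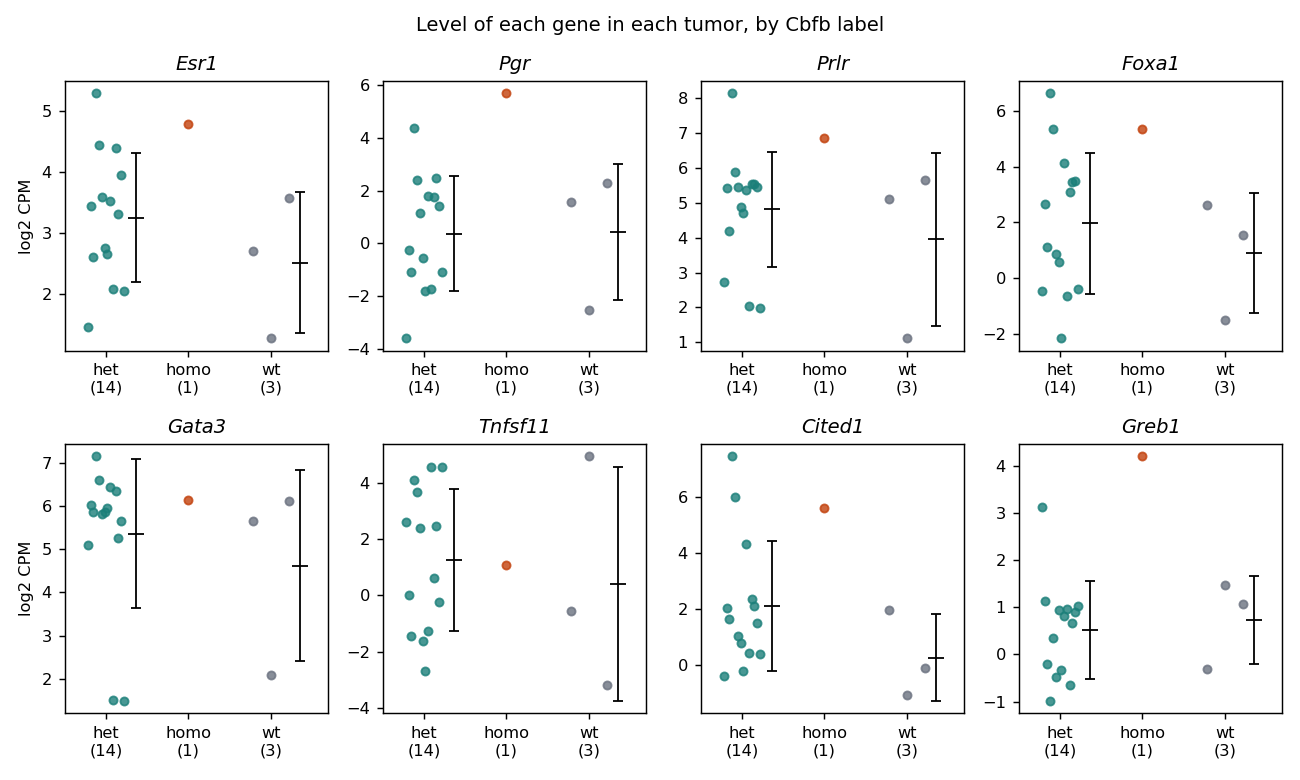
Level of each of the 8 genes in each tumor, in log2 CPM (counts scaled to library size), by Cbfb label with the number of tumors in brackets. Points are tumors, bars are the mean ± SD of the 14 Cbfb(het) and 3 Cbfb(wt) tumors, and the ranges of these groups overlap for all 8 genes, while the Cbfb(homo) tumor is highest of the 18 for Pgr and Greb1.

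The design contrasts tumors by Cbfb genotype, and none of the 8 genes differed between Cbfb(het) and Cbfb(wt) tumors beyond the spread between tumors. The test was edgeR's quasi-likelihood test over the 18494 genes that passed a filter on low counts, all 8 genes among them, with Benjamini-Hochberg adjustment over all of them and a threshold of 0.05. It called 0 of the 8 genes and 0 of the 18494 genes (0.0%), with 624 genes at an unadjusted p under 0.05. DESeq2 called 0 genes (934 at an unadjusted p under 0.05), as did limma-voom (489). With 3 Cbfb(wt) tumors, of which 1 was low in Epcam, the standard errors below were large, so a miss of the threshold does not show equal levels.

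On the log2 CPM scale (library factors by TMM, prior count 2), Cited1 averaged 2.09 ± 2.32 in Cbfb(het) tumors and 0.25 ± 1.56 in Cbfb(wt) tumors (SD, n = 14 and 3). Its fitted log2 fold change was 3.57 ± 1.99 (SE, unadjusted edgeR p = 0.0898, adjusted edgeR p = 0.999), the lowest p of the 8. Only 6 of the 14 Cbfb(het) tumors were above all 3 Cbfb(wt) tumors. Foxa1 averaged 1.98 ± 2.54 and 0.89 ± 2.16 in the Cbfb(het) and Cbfb(wt) tumors, with a log2 fold change of 2.22 ± 1.68 (SE).

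The receptors differed less in size. The log2 fold change was 0.83 ± 0.69 for Esr1, 0.33 ± 1.32 for Pgr and 0.78 ± 1.05 for Prlr (SE). For Gata3 it was 0.53 ± 0.85, for Tnfsf11 -0.59 ± 1.42 and for Greb1 0.03 ± 0.71. The adjusted edgeR p of each of the 8 genes was 0.999. For Pgr, Tnfsf11 and Greb1 the difference of the mean log2 CPM had the other sign (-0.07, 0.86 and -0.22), so their fitted direction was not stable.

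Single tumors decided some of these directions and sizes. Without Cbfb(wt) 2 the log2 fold change was 4.32 for Tnfsf11, -0.23 for Pgr and -0.0091 for Gata3. Without Cbfb(het) 4 it was -0.44 for Pgr. For Greb1 it was -0.46 without Cbfb(het) 1 and -0.35 without Cbfb(wt) 1. For the other genes the direction held but the size moved. Without Cbfb(het) 4 the log2 fold change was 2.31 for Cited1, 1.34 for Foxa1 and 0.13 for Prlr. Omitting 1 tumor at a time gave 0.42 (without Cbfb(wt) 2) to 1.46 (without Cbfb(wt) 3) for Esr1. For Prlr it was 0.23 without Cbfb(wt) 2 and 1.44 without Cbfb(wt) 3.

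Over the 8 genes 7 fitted values were positive and 1 negative, with a median of 0.65, beside 9842 positive and 8652 negative over all genes tested with a median of 0.03.

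Lists of pathway and cell type genes were read from the same fit, and no gene of any of them was called. Of 17 tested genes of estrogen response 12 had a positive and 5 a negative fitted value (median 0.14), of 10 in the progesterone and RANK paracrine list 5 and 5 (median 0.14), and of 10 in the prolactin and STAT5 list 3 and 7 (median -0.16). Of 12 mature luminal genes 8 were positive and 4 negative (median 0.34), and their mean level was 3.20 to 5.83 log2 CPM in Cbfb(het) tumors and 5.51 in the Cbfb(homo) tumor, against 2.91 to 4.8 in Cbfb(wt) tumors. Markers of other cell types leaned with the label as well, in either direction. All 7 adipocyte genes had positive fitted values (median 5.10), with 6 at an unadjusted p under 0.05 in edgeR and a mean level of -0.88 to 4.8 log2 CPM in Cbfb(het) tumors, against -1.56 to 0.10 in Cbfb(wt) tumors. All 10 basal and myoepithelial genes were positive too (median 0.98, mean level 5.48 to 7.51 in Cbfb(het) tumors, against 5.18 to 6.48 in Cbfb(wt) tumors), as were all 10 T cell genes (median 0.65). Of 8 myeloid and pan-leukocyte genes 1 was positive and 7 negative (median -0.47), and of 8 proliferation genes 1 and 7 (median -0.23). The part of these cell types in the values of the 8 genes was not tested.

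The Cbfb(homo) tumor had no replicate and entered no test. It was highest of the 18 tumors for Pgr and Greb1 and had the second highest Esr1 and Prlr levels. Its mature luminal list was second highest at 5.51 log2 CPM and its estrogen response list highest at 4.97 log2 CPM. It was also highest for the basal and myoepithelial list (8.70 log2 CPM), with the basal keratin Krt14 at 10570 TPM, and lowest for proliferation genes (4.53 log2 CPM).

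Esr1, Pgr, Prlr, Foxa1 and Cited1 moved together over the tumors. Greb1 did not follow them, and Tnfsf11 did so only where the epithelial level was taken into account or tumors were left out. Over all 18 tumors, all 10 pairs among these 5 genes passed, with Pearson's r from 0.754 to 0.922 and Spearman's rho from 0.746 to 0.953 on log2 CPM. A pair passed when both measures had an adjusted p under 0.05 (two-sided permutation test with 100000 resamples, Benjamini-Hochberg over the 28 pairs of the 8 genes). The largest adjusted permutation p of the 10 was 0.00126 for r and 0.00145 for rho. All 10 pairs passed whichever tumor was left out of the 18, with the lowest r at 0.670. They also passed over the 14 Cbfb(het) tumors alone (r 0.756 to 0.925).

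Esr1 and Prlr, the estrogen and prolactin receptors, had an r of 0.922 and a rho of 0.953 (adjusted permutation p 3.5e-05 and 7e-05). Without the 2 tumors farthest from the median Esr1 level, r was 0.874. Among 20307 genes Esr1 was the first in likeness to Prlr, by the smaller of r and rho, and Prlr was the sixth for Esr1. Esr1 and Pgr had an r of 0.899 and a rho of 0.858 (adjusted permutation p 3.5e-05 and 0.00012), and r was 0.871 without the 2 tumors farthest from the median Esr1 level.

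Foxa1 and Cited1 had an r of 0.917 and a rho of 0.915 (adjusted permutation p 3.5e-05 and 7e-05), and r was 0.907 without the 2 tumors farthest from the median Foxa1 level. Foxa1 was the first of 20307 genes in likeness to Cited1. Prlr and Cited1 were the least alike of the 5 genes, with an r of 0.754 and a rho of 0.746.

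The relations were about as close without the low-Epcam tumors. Over the 15 tumors without them, the 10 pairs still passed, with r from 0.749 to 0.928. They passed as well after the mean level of 14 pan-epithelial genes was regressed out over 18 tumors (r 0.744 to 0.898). Leaving out a tumor with high levels as well lowered the count: with the low-Epcam tumors and Cbfb(het) 4 left out, 8 of the 10 pairs passed (lowest r 0.645), and with the low-Epcam tumors and Cbfb(homo) 1 left out, 8 of the 10 passed (lowest r 0.701). With the low-Epcam tumors and Cbfb(het) 1 left out, all 10 passed (lowest r 0.723).

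**Figure D2:**
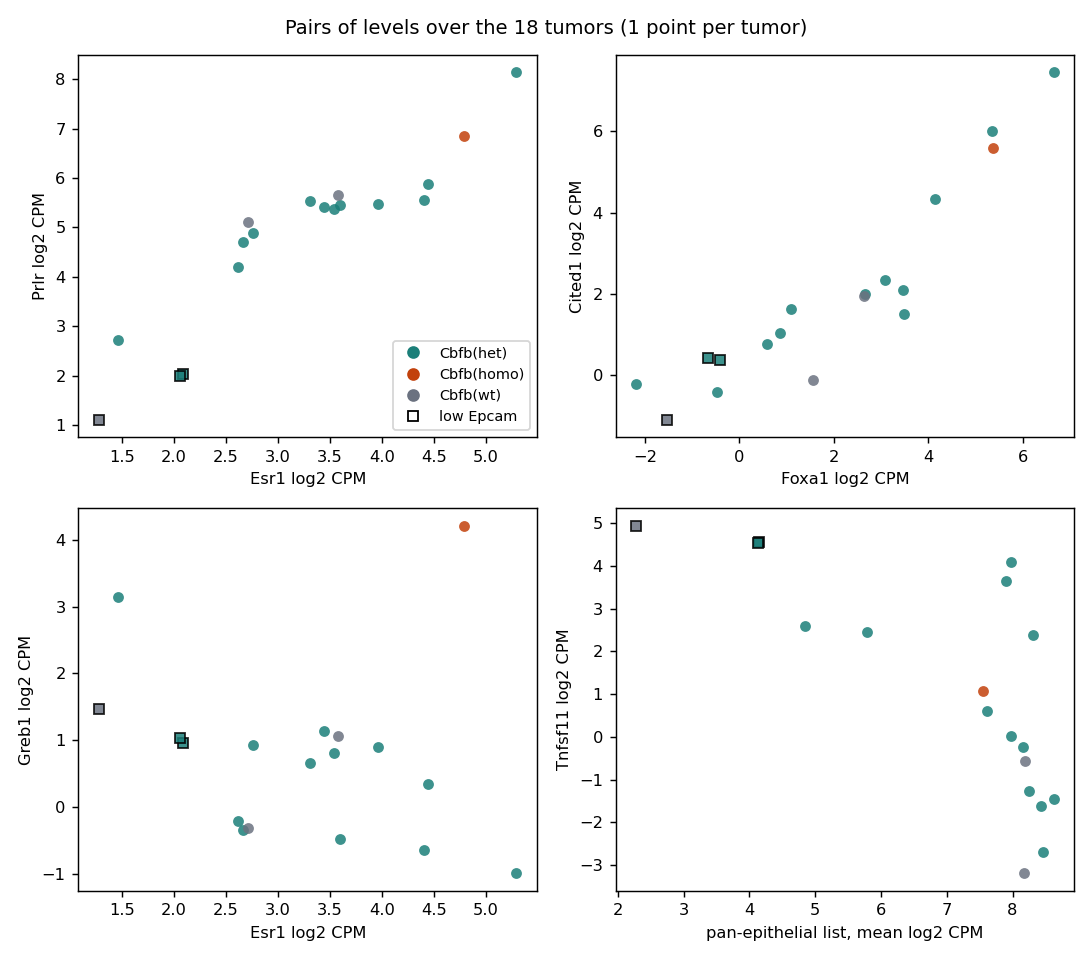
Levels of 4 pairs over the 18 tumors, 1 point per tumor in log2 CPM, colored by Cbfb label, with a black square edge for the 3 low-Epcam tumors. Esr1 with Prlr and Foxa1 with Cited1 lie along a rising line (r 0.922 and 0.917), Esr1 with Greb1 shows no rising line, and Tnfsf11 is highest where the mean level of pan-epithelial genes is lowest.

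Because the Gata3 levels fell into 2 clusters, its pairs are given within the 15 tumors of the upper cluster. There Gata3 passed with Esr1 (r 0.770, rho 0.650, adjusted permutation p 0.00238 and 0.0244) and with Cited1 (r 0.749, rho 0.671, adjusted permutation p 0.00252 and 0.0188). Without the 2 of the 15 tumors farthest from the median Esr1 level, r with Esr1 was 0.505, and without those farthest from the median Cited1 level, r with Cited1 was 0.467. Its pairs with Prlr (r 0.751), Foxa1 (r 0.601) and Pgr (r 0.558) did not pass on both measures. Of the 28 pairs, 15 passed over 18 tumors (the 10 above and 5 of Gata3), against 12 over these 15 tumors.

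**Figure D3:**
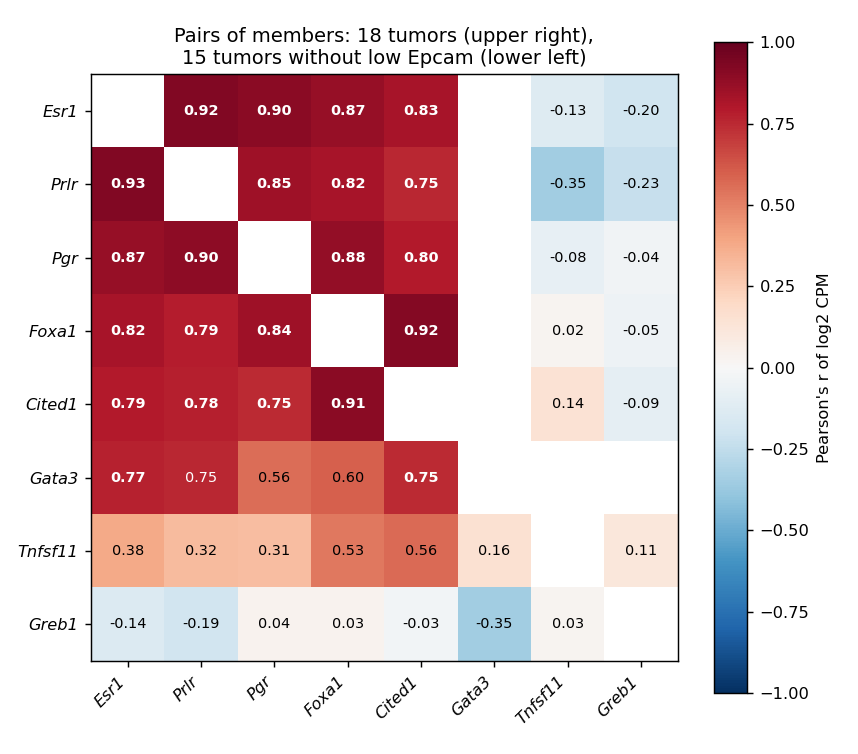
Pearson's r of log2 CPM for each pair of the 8 genes, over 18 tumors in the upper right and over the 15 tumors without low Epcam in the lower left. Bold numbers passed the threshold on both r and rho, the Gata3 pairs are blank over 18 tumors because the levels fall into 2 clusters, and the block of Esr1, Prlr, Pgr, Foxa1 and Cited1 stands out on both sides of the diagonal.

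Greb1, the gene known as estrogen-induced, had r values from -0.231 to 0.112 with the other members outside Gata3 over 18 tumors, and none passed. With Esr1 its r was -0.203 and its rho -0.364 (adjusted permutation p 0.592 and 0.206). This value moved with single tumors in both directions. Without the Cbfb(homo) tumor, high in both genes, r was -0.622 and rho -0.578 (adjusted permutation p 0.0147 and 0.0275). Without Cbfb(het) 1 r was -0.028, and without Cbfb(het) 4 it was -0.056, and neither passed. Over the 14 Cbfb(het) tumors r was -0.666 and rho -0.644 (adjusted permutation p 0.0186 and 0.0286). Among them Cbfb(het) 4 had the highest Esr1 and the lowest Greb1 level, and Cbfb(het) 1 had the lowest Esr1 and the highest Greb1 level. Over the 15 tumors without low Epcam, Cbfb(homo) 1 included, r was -0.141. By likeness to Esr1, Greb1 came 16278th of 20307 genes.

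Tnfsf11 passed with none of the other genes on the log2 CPM levels of the 18 tumors. With Pgr, the receptor for the hormone that induces it, r was -0.0825 over 18 tumors and 0.308 over the 15 tumors without low Epcam, and neither passed. With Cited1, r was 0.145 over 18 tumors and 0.564 over 15 (rho 0.525, adjusted permutation p 0.0535 and 0.0839). The low-Epcam tumors, high in Tnfsf11 and among the lower tumors for Pgr and Cited1, lay apart from the rest in these pairs.

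After the pan-epithelial level was regressed out over 18 tumors, Tnfsf11 passed with Cited1 (r 0.728, rho 0.670, adjusted permutation p 0.00214 and 0.00761), Esr1 (r 0.644, rho 0.730, adjusted permutation p 0.00947 and 0.00277) and Foxa1 (r 0.610, rho 0.540, adjusted permutation p 0.0151 and 0.0447). It did not pass with Prlr (r 0.550, rho 0.486), Pgr (r 0.467), Gata3 (r 0.201) or Greb1 (r -0.247). Without the low-Epcam tumors and Cbfb(het) 1, Tnfsf11 passed with Esr1, Pgr, Prlr, Foxa1 and Cited1, with r from 0.576 (Pgr) to 0.716 (Cited1). Over the 15 tumors without low Epcam, which include Cbfb(het) 1, it passed with none. Of these 15, Cbfb(het) 1 was nearest to the low-Epcam cutoff (75.1 TPM). Its level of the mesenchymal gene Vim, 3846 TPM, was the highest of the 18 tumors. The relation of Tnfsf11 to these genes thus changed with the tumors and the adjustment.

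**Figure D4:**
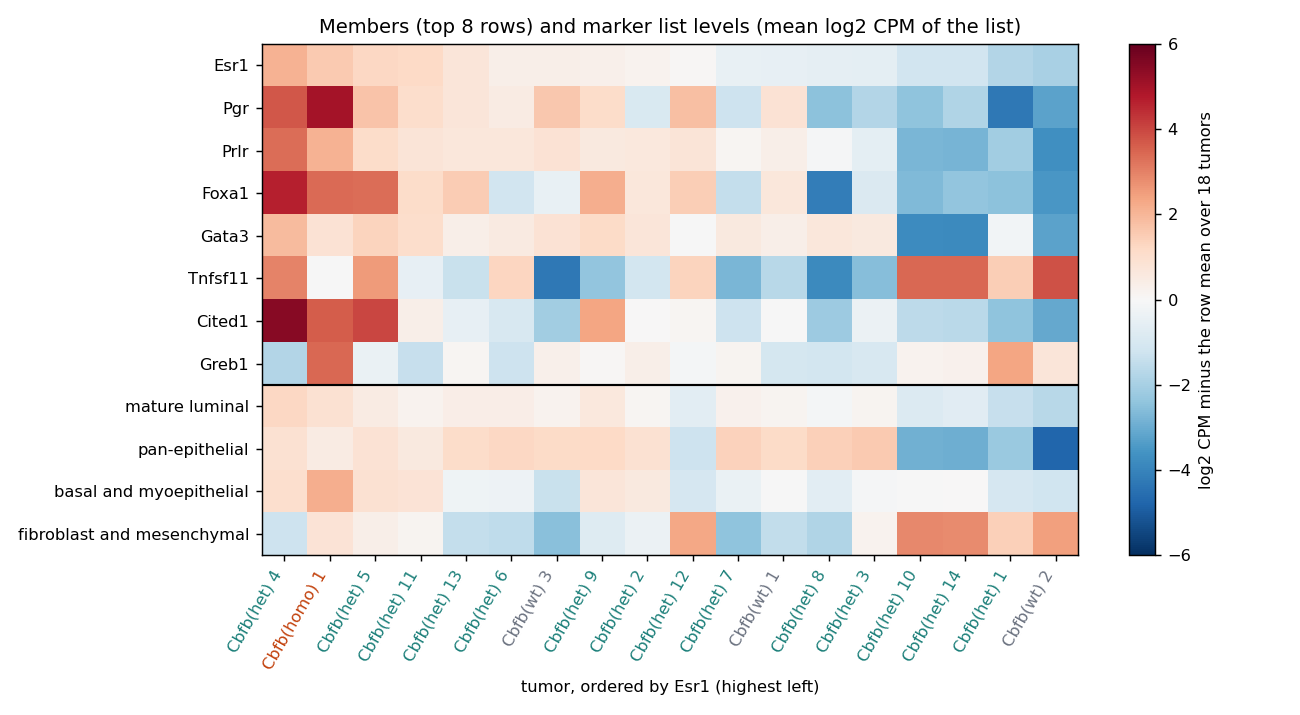
Levels of the 8 genes and of 4 marker lists (mean log2 CPM of the list) in the 18 tumors, each as the difference from its mean over the tumors, with tumors ordered by Esr1 from high on the left to low on the right. Pgr, Prlr, Foxa1 and Cited1 run from red to blue with Esr1, while Tnfsf11 is red both at the high end (Cbfb(het) 4 and 5) and in the low-Epcam tumors, and Greb1 is red in Cbfb(homo) 1 and Cbfb(het) 1.

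The levels of the 8 genes were set against the mean levels of 15 lists of pathway and cell type genes (members left out of the lists), and 19 of the 120 combinations passed over 18 tumors. Esr1 followed the mature luminal list with an r of 0.878 and a rho of 0.882 (adjusted permutation p 0.0006 and 0.0012). Without the 2 tumors farthest from the median Esr1 level r was 0.807, and over the 15 tumors without low Epcam r was 0.807 and rho 0.800, which passed. Prlr (r 0.897, rho 0.779), Pgr (r 0.789, rho 0.756), Cited1 (r 0.755, rho 0.726) and Foxa1 (r 0.750, rho 0.781) also passed with this list over 18 tumors whichever tumor was left out. Without the low-Epcam tumors those relations did not pass on both measures (r 0.832, 0.729, 0.707 and 0.642).

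Cited1 also followed the basal and myoepithelial list, with an r of 0.810 and a rho of 0.787 (adjusted permutation p 0.00096 and 0.00343). It passed again over the 15 tumors without low Epcam (r 0.814, rho 0.839), and r over 18 was 0.845 without the 2 tumors farthest from the median Cited1 level. The level of this list was 5.48 to 7.51 log2 CPM in the Cbfb(het) tumors and 8.70 in the Cbfb(homo) tumor, against 5.18 to 6.48 in the Cbfb(wt) tumors. Foxa1 passed with the same list over 18 tumors (r 0.683, rho 0.643) but lost the call with 8 of the 18 single omissions, among them Cbfb(homo) 1 (r 0.640) and Cbfb(het) 4 (r 0.652).

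Tnfsf11 ran the other way with epithelial content. Its r was -0.727 and its rho -0.837 with the pan-epithelial list (adjusted permutation p 0.00262 and 0.003). With fibroblast and mesenchymal genes its r was 0.743 and its rho 0.787, and with hair follicle and epidermis genes its r was -0.747 and its rho -0.796. These 3 relations passed whichever tumor was left out, and r without the 2 tumors farthest from the median Tnfsf11 level was -0.697, 0.660 and -0.713 for the 3 lists. Neither check left out both Cbfb(het) 10 and Cbfb(het) 14, the most alike pair of tumors. These checks alone therefore cannot show whether the relations rest on that pair. The alternatives without Cbfb(het) 10 and 14, or with them counted as 1, kept the sign of r in all 3 relations. Of the 120 combinations, 23 passed without the pair and 18 with it counted as 1. Whether these 3 relations were among them is not stated here.

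Without the 3 low-Epcam tumors only the relation of Tnfsf11 with hair follicle and epidermis genes passed (r -0.675, rho -0.743). With the pan-epithelial list r was then -0.496 and rho -0.721, and with the fibroblast list r was 0.553 and rho 0.643. The fibroblast collagen Col1a1 was at 6486, 6685 and 2147 TPM in Cbfb(het) 10, Cbfb(het) 14 and Cbfb(wt) 2, the tumors with the highest Tnfsf11, and Krt18 was below 15 TPM in each. Other tumors did not pair the 2 genes in this way. Cbfb(het) 12 had Col1a1 at 5280 TPM with Tnfsf11 at 4.9 TPM, and Cbfb(het) 4 had Col1a1 at 44.6 TPM with Tnfsf11 at 9.64 TPM. Whether fibroblasts or other cell types carried the Tnfsf11 RNA was not tested.

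Foxa1 passed with the estrogen response list (r 0.784, rho 0.798, adjusted permutation p 0.00187 and 0.00343) whichever tumor was left out, and again over the 15 tumors without low Epcam (r 0.697, rho 0.725). Esr1 passed with that list over 18 tumors (r 0.727, rho 0.668) but lost the call without Cbfb(het) 1 (r 0.703), Cbfb(wt) 2 (r 0.654) or Cbfb(homo) 1 (r 0.683). None of the 8 genes passed with the proliferation, T cell or adipocyte lists over 18 tumors. For Gata3 within the 15 tumors of its upper cluster, r with the mature luminal list was 0.820 and rho 0.664, which did not pass on rho (adjusted permutation p 0.0104 and 0.0819).

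Most relations with lists were lost without the low-Epcam tumors, but not with every omission. Without Cbfb(het) 10 and 14 alone, 23 of the 120 combinations passed. Over the 15 tumors without low Epcam 8 of the 120 combinations passed, and with Cbfb(het) 4 left out as well 0 passed, with Cbfb(het) 1 left out as well 2 and with Cbfb(homo) 1 left out as well 2. Cited1 with the basal and myoepithelial list was among the 2 in both of those last cases (r 0.794 and 0.802).

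The receptors were also set against single genes of their pathways, a family of 40 relations chosen after the data had been seen. Of 18 estrogen response genes, 1 passed with Esr1 over 18 tumors. This was Myb, a transcription factor gene, with an r of 0.733 and a rho of 0.808 (adjusted permutation p 0.00653 and 0.004), named after its value was seen. Over the 15 tumors without low Epcam its r was 0.684 and it did not pass (adjusted permutation p 0.0589 for r and 0.0936 for rho). The amphiregulin gene Areg had an r of 0.298 and the unfolded protein response factor Xbp1 an r of 0.329 with Esr1, and neither passed.

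Pgr passed with 0 of 10 genes of the progesterone and RANK paracrine list. Its r was 0.365 with Areg and 0.562 with Wnt4, a secreted factor that progesterone induces, named for that role. Prlr passed with 0 of 10 genes of prolactin and STAT5 signaling on both measures. For Elf5, an alveolar transcription factor that prolactin induces, r was 0.776 but rho 0.443 over 18 tumors, and over the 15 tumors without low Epcam r was 0.198, so the pooled value rested on the low-Epcam tumors. Socs3, an inhibitor of cytokine signaling, had an r of -0.698 and a rho of -0.665 with Prlr (adjusted permutation p 0.0129 and 0.0590), just outside the threshold on rho. Over the 15 tumors without low Epcam its r was -0.545 and its rho -0.445 (adjusted permutation p 0.219 and 0.484).

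Tnfsf11 passed with neither its receptor Tnfrsf11a (r -0.261) nor its decoy receptor Tnfrsf11b (r -0.193), both named for their roles. Tnfrsf11a was at 3.93 to 21.5 TPM and Tnfrsf11b at 1.94 to 57.8 TPM over the 18 tumors, so both were detected in every tumor. Cbfb(wt) 3, with 2 counts of Tnfsf11, had the highest Tnfrsf11a level, and Cbfb(het) 4, among the tumors high in Tnfsf11, had the lowest Tnfrsf11b level.

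**Figure D5:**
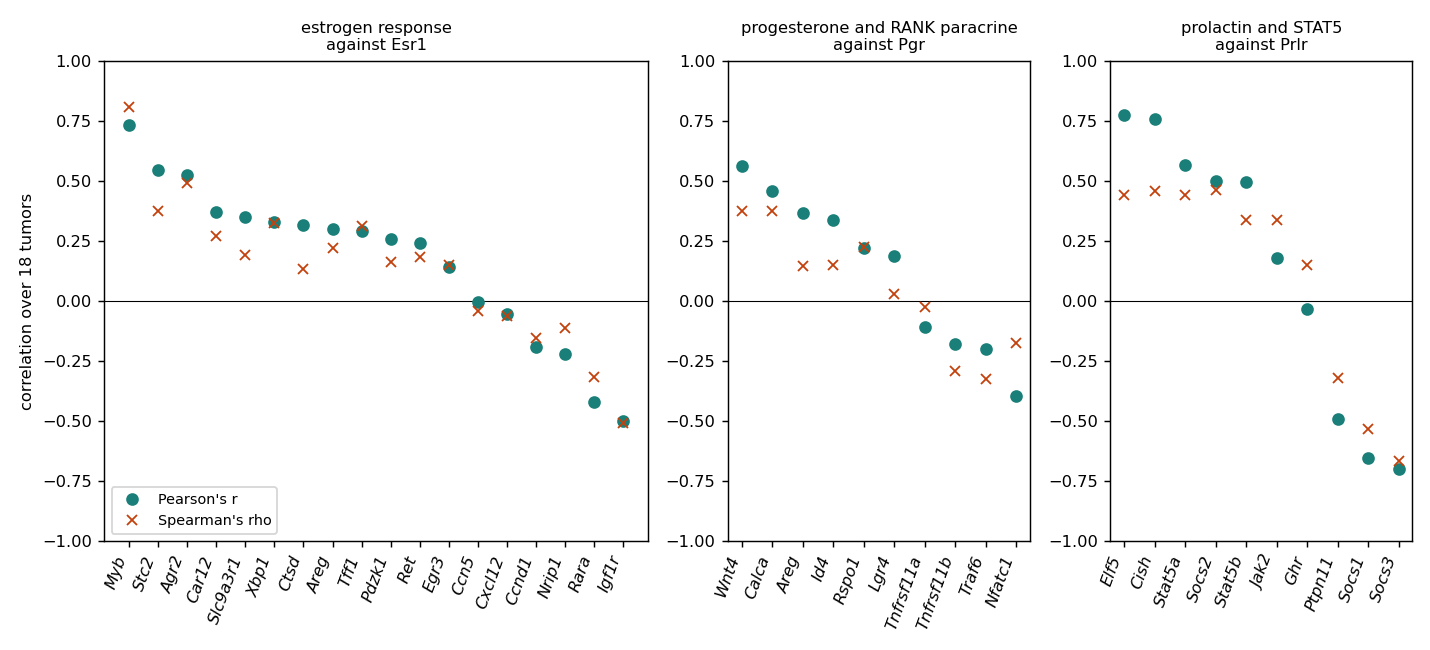
Correlation over 18 tumors of Esr1 with 18 estrogen response genes, of Pgr with 10 genes of the progesterone and RANK paracrine list and of Prlr with 10 genes of prolactin and STAT5 signaling. Circles are Pearson's r and crosses Spearman's rho, and the points lie on both sides of 0 in each panel, with 12 of 18, 6 of 10 and 6 of 10 values of r above 0.

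The genes most like each member over the 18 tumors, by the smaller of r and rho, are given as a description with no test. Named here are the 3 closest after the 8 genes themselves, genes with a mean log2 CPM under 1 and unnamed gene models were left out. For Esr1 these were Tfap2b, a transcription factor gene (r 0.954, rho 0.965), Phkb (r 0.946, rho 0.967) and Lmx1b (r 0.935, rho 0.951). Tfap2b was also among the 3 named for Pgr (r 0.894) and Prlr (r 0.893). The others were Mcf2l and Tmem56 for Pgr, and for Prlr Fbxo32 (r 0.906) and Tet1 (r 0.896).

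Under the same rule Tmem56 came first for both Foxa1 (r 0.891, rho 0.895) and Cited1 (r 0.877, rho 0.874). Zfp423 and Oas1c followed for Foxa1, and Lrrn2 and Hey1 for Cited1. Tspan1, Creb3l4 and Cutal were named for Gata3, with values over 18 tumors that hold the gap between its 2 clusters. Those for Tnfsf11 were Cfap36 (r 0.901, rho 0.901), Zfp991 and Tspan3. For Greb1 the genes named were less like it, with Zfp69 first (r 0.747, rho 0.765), then Thsd1 and Polm.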

How the data were processed

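RNA of 18 mouse mammary tumors was measured by bulk RNA-seq with a stranded mRNA kit (TruSeq, per the labels' protocols). The authors deposited an expected count and a TPM for each gene and tumor, per the file headers. STAR 2.7.0f, RSEM 1.3.1 and build mm10 are named in the submitters' processing notes. The strand setting and annotation release of the counting are not stated in the labels. All 55450 gene IDs were found in GENCODE M21, which gave positions. Expected counts (6.20% to 7.19% of values not whole) were rounded. TPM was used as deposited. The 8 genes were matched by symbol, and Wisp2 was read as Ccn5 through RefSeq synonyms.

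Cbfb(het) was compared with Cbfb(wt) with edgeR 4.0.16 (R 4.3.3; filterByExpr, TMM factors, quasi-likelihood test, Benjamini-Hochberg over all genes kept). DESeq2 1.42.0 and limma 3.58.1 were alternatives. Correlations used log2 CPM and permutation tests (numpy 2.4.6, scipy 1.17.1), and 1e-05 was the smallest p the permutations could give. The tests were tested on simulated data. The series design gives each tumor another mouse, so p-values measure the spread between tumors, but Cbfb(het) 10 and 14 are so alike that they may share a source. The depth of each tumor makes counting error small for genes with many counts. It is not small at low counts, such as the 5 counts of Foxa1 in Cbfb(het) 8. A tumor was called low in Epcam at more than 3 on the log2 scale below the median. Besides the 8 genes, named genes were up to 4 per list by mean TPM, the 3 genes most like each member (members, unnamed models, immunoglobulin and T cell receptor segments and genes with a mean log2 CPM under 1 left out), and genes stated as chosen otherwise. The members and lists were chosen with earlier results of these data known. The alternatives were other tools, filters and scalings, log2(TPM + 1), the pan-epithelial level as covariate, Cbfb(het) tumors only, and tumors left out.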

Additional observations from a re-analysis of the deposited data

How the results depend on the processing

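No paired analysis was possible because the labels give every tumor the same repeat number and name no litter or batch. In the comparison of Cbfb(het) with Cbfb(wt), 1 gene (Tex11, lower in Cbfb(het)) was called without the filter on low counts and with all 18 tumors in the fit, and 0 under the other alternatives. The log2 fold change of Pgr, Cbfb(het) against Cbfb(wt), was -0.087 without the low-Epcam tumors and -0.44 to 1.11 with 1 tumor left out. That of Gata3, Cbfb(het) against Cbfb(wt), was -0.0091 to 1.14 with 1 tumor left out. That of Tnfsf11, Cbfb(het) against Cbfb(wt), was 0.94 in limma-voom, 2.38 with the pan-epithelial level as covariate, 3.57 without the low-Epcam tumors and -1.17 to 4.32 with 1 tumor left out. That of Greb1, Cbfb(het) against Cbfb(wt), was -0.23 in limma-voom and -0.46 to 0.42 with 1 tumor left out. The cause was not tested.

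Of the 28 pairs of genes, 15 passed over 18 tumors, 13 to 16 with 1 tumor left out and 12 without the low-Epcam tumors. With Cbfb(het) 4 left out as well as the low-Epcam tumors 8 passed, with Cbfb(homo) 1 left out as well 8 and with Cbfb(het) 1 left out as well 16. Combinations with lists numbered 19, with 5 in Cbfb(het) tumors only and 8 without the low-Epcam tumors. They numbered 2, 0 and 2 when Cbfb(het) 1, Cbfb(het) 4 or Cbfb(homo) 1 was left out as well. With 1 tumor left out 14 to 21 passed, with Cbfb(het) 10 and 14 counted as 1 18 passed, and without both of them 23. For Esr1 with Greb1, Pearson r was 0.014 on log2(TPM + 1), 0.19 without the low-Epcam tumors and Cbfb(het) 1, 0.030 without the low-Epcam tumors and Cbfb(het) 4, and 0.050 as residuals on the pan-epithelial level. For Tnfsf11 with Cited1, Pearson r was -0.021 to 0.297 with 1 tumor left out, but 0.728 as residuals on the pan-epithelial level and 0.716 without the low-Epcam tumors and Cbfb(het) 1, where the pair passed. The alternatives that leave out Cbfb(het) 10 and 14, the low-Epcam tumors or single tumors in correlations were chosen after seeing the data. Fewer tumors enter most of these alternatives, which lowers what a test can call. Only 3 Cbfb(wt) tumors and 1 Cbfb(homo) tumor limit the comparison more than depth does.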
